A study of Mus musculus with 6 samples.

Results

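The genes described here are 10 markers of fetal liver macrophages, taken as a list by name from the 38926 genes of the count files: C1qa, C1qb, C1qc, Csf1r, Cd68, Mrc1, Fcgr1, Vcam1, Mertk and Timd4. The rule that lists them uses no measured value, but the list was chosen with earlier results of these data known. All 10 were found in the files and passed the filter on low counts. They were read in 6 RNA-seq libraries of hematopoietic stem cells (HSCs) that had been sorted from mouse fetal liver at E14.5 of gestation. The 3 control libraries had the genotype Vav-Cre; Dpy30F/+ and the 3 knockout libraries had the genotype Vav-Cre; Dpy30F/-. Every embryo therefore carried the Vav-Cre transgene and a floxed (F) allele of Dpy30, and the groups differed in the other allele, which was wild type in the controls and deleted in the knockouts. The Vav promoter drives Cre in blood-forming cells and their descendants, which include macrophages. The labels place 1 library of each genotype in each of 3 litters and do not say how many embryos a library holds, or which surface markers were used in the sort.

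Macrophages of the fetal liver sit at the centre of erythroblastic islands, where they hold maturing red cell precursors and engulf the nuclei that those cells expel. Their survival depends on signals through the receptor encoded by Csf1r, they secrete the complement protein C1q, and they take up dying cells and debris through receptors such as MERTK, TIM-4 and the mannose receptor. Some of their markers are shared: the mannose receptor gene Mrc1 and the adhesion gene Vcam1 are also expressed by sinusoidal endothelium of the liver. A sorted HSC library should hold little of this RNA, and in bulk RNA more macrophages, or more marker RNA per cell, cannot be told apart.

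The 6 libraries held 31897737 to 43394700 counts in genes, of which 49.2% to 67.7% fell in mitochondrial genes. Log2 expression correlated between controls with r of 0.856 to 0.880 across genes and between knockouts with r of 0.720 to 0.773. Dpy30 was measured at 24.6, 24.2 and 31.6 counts-per-million (CPM, on library sizes scaled by the trimmed mean of M values) in controls 1 to 3 and at 7.93, 5.95 and 13.7 CPM in knockouts 1 to 3, so every knockout was below every control. A pair of knockout libraries stood apart. Fewer genes had a count in knockout 2 (14674) and knockout 3 (13972) than in the other libraries (16149 to 17241). In knockout 3 the summed level of 13 HSC markers was 339 CPM against 831 to 1040 CPM in the other 5 libraries, and 12 of the 13 were lowest there. In knockout 2 the summed level of 10 endothelial markers was 209 CPM against 1531 to 2417 CPM in the others, and 9 of the 10 were lowest there.

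The C1q chains are encoded by neighbouring genes on the minus strand of chromosome 4 (GRCm38): C1qb at 136880129 to 136886187, C1qc at 136889804 to 136893065 and C1qa at 136895917 to 136898803. Mrc1 lies on chromosome 2 at 14229392 to 14332057, Mertk on chromosome 2 at 128698956 to 128802894, Cd68 on chromosome 11 at 69664213 to 69666153 and Timd4 on chromosome 11 at 46810800 to 46844332. Fcgr1 lies on chromosome 3 at 96282909 to 96293969 and Vcam1 on chromosome 3 at 116109949 to 116129688. All 10 are annotated as protein-coding. Promoters of 7 of the 10 were matched by symbol in RefSeq (GRCm38.p6), with no match for C1qa, Csf1r and Vcam1. The 250 bases before the start were searched on both strands for 5 short motifs of factors active in the macrophage lineage. The PU.1 motif GAGGAA, bound by the factor that specifies myeloid cells, was present in 5 of the 7 (Mrc1, Fcgr1, C1qb, C1qc and Cd68) and in 23.3% of 32851 promoters of the same length. The MAF motif TGCTGA was present in C1qb and Timd4 (16.1% of all promoters), the C/EBP motif TTGCNNAA in Cd68 (9.56%), the RUNX motif TGTGGT in C1qc (14.1%) and the E-box CACGTG in none of the 7 (6.02%). These are matches of letters only, and none of the motifs overlapped in the sequences printed. The promoters of 3 members are shown because their levels followed different patterns: C1qb and Cd68 were higher in every knockout, and Mrc1 was lowest in knockout 2. Capitals mark the motif matches, and TTCCTC is GAGGAA on the other strand. The Mrc1 sequence stops where the GENCODE gene begins.
C1qb, chr4:136886201-136886450 (minus strand): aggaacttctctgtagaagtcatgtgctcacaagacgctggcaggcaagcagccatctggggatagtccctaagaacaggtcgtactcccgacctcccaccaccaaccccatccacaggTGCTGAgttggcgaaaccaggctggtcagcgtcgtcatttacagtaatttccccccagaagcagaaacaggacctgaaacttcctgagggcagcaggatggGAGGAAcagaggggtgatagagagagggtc
Cd68, chr11:69666171-69666420 (minus strand): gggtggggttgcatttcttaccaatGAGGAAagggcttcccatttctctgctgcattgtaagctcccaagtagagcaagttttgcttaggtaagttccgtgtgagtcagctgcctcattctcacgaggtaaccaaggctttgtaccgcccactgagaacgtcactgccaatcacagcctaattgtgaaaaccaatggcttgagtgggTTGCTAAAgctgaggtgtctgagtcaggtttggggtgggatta
Mrc1, chr2:14229164-14229391 (plus strand): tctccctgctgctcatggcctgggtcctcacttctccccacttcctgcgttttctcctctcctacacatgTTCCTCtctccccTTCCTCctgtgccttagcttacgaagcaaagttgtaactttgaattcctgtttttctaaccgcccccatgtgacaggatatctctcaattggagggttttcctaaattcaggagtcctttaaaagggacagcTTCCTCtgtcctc
The C1qb sequence holds the MAF motif followed by PU.1, the Cd68 sequence holds PU.1 followed by C/EBP, and the Mrc1 sequence holds PU.1 3 times.

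The first comparison asked whether macrophage marker RNA differed between control and knockout HSC libraries. C1qb, Csf1r, Cd68 and Timd4 were higher in every knockout library than in every control library. C1qa, C1qc, Fcgr1 and Mertk had higher means in the knockouts with overlapping groups, and Mrc1 and Vcam1 had similar means in both groups, with knockout 2 far below the rest. None of the 10 passed an adjusted p of 0.05 in edgeR's quasi-likelihood test, the main test, and neither did any of the 13646 genes tested (0.0% called). In DESeq2, run on the same genes, C1qb and Csf1r passed. The median log2 fold change of the 10 members, knockout over control, was 1.39, beside 0.02 for all genes tested.

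Each count of members was read against the same count over all genes, as a description, because the members were chosen with earlier results known. Every knockout was above every control for 4 of the 10 members and for 6.39% of all genes tested. The same 4 members had an unadjusted edgeR p under 0.05 with a higher knockout level, against 4.26% of all genes. DESeq2 called 2 of 10 members higher, against 0.777% of the genes for which it gave an adjusted p. With litter as a block it again called 2 members, C1qb and Csf1r, against 1.2% of genes. The spread between libraries was wide: the square root of the dispersion, which is the coefficient of variation between replicates, had a median of 0.591 over the members and of 0.652 over all genes.

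**Figure D1:**
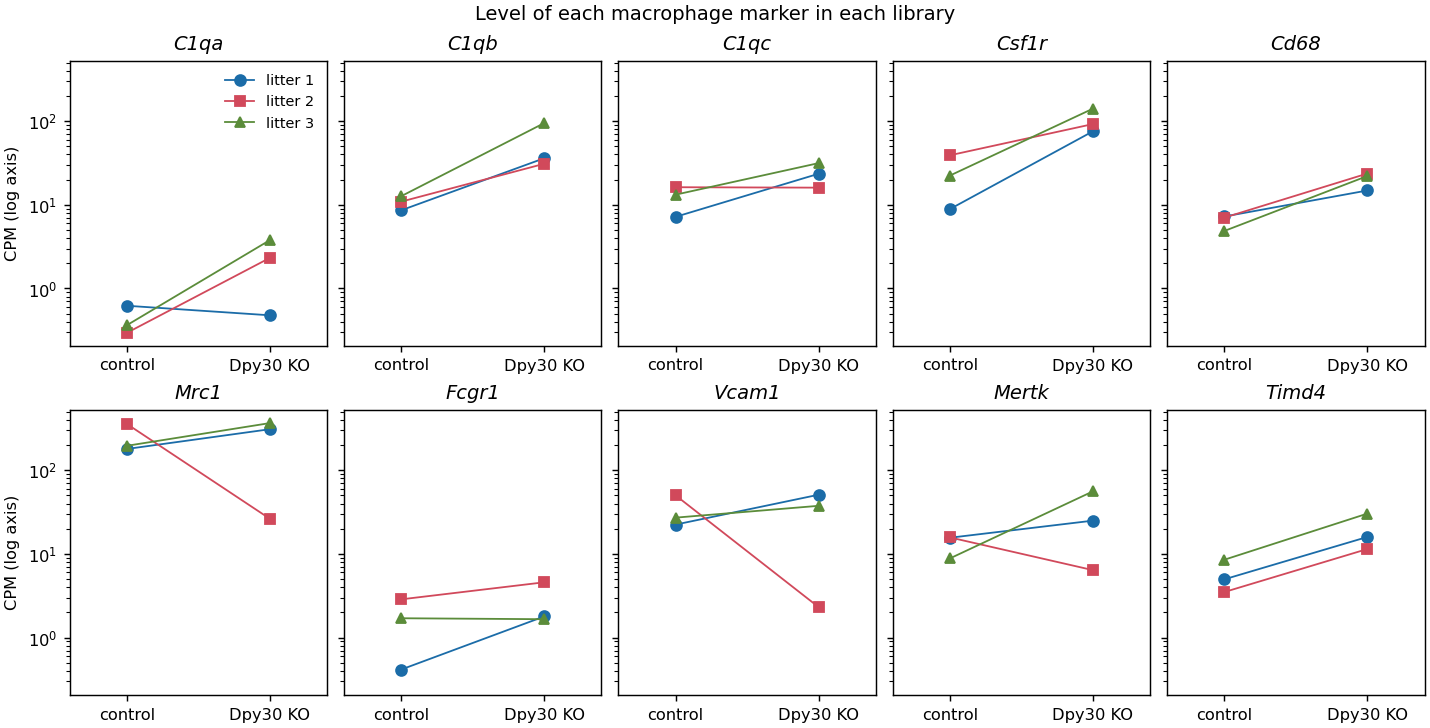
Level of each marker in CPM (log axis, the same in every panel) in the control and the knockout library of each litter, 1 point per library, with a line joining the libraries of a litter. All 3 lines go up for C1qb, Csf1r, Cd68 and Timd4, whereas the litter 2 line goes down steeply for Mrc1 (359 to 26.4 CPM) and Vcam1 (50.1 to 2.32 CPM).

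Csf1r encodes the receptor for CSF1 and IL-34, on which macrophages depend. It was measured at 8.91, 39.1 and 22.4 CPM in controls 1 to 3 and at 75.7, 92.4 and 141 CPM in knockouts 1 to 3. The lowest knockout was above the highest control. Means of 23.5 ± 15.1 CPM (controls) and 103 ± 34.1 CPM (knockouts; SD, n = 3) gave a log2 fold change of 2.13 (SE 0.53; edgeR adjusted p = 0.622, DESeq2 adjusted p = 0.00759). Within litters the knockout-over-control ratio of Csf1r on the log2 scale was 3.08, 1.24 and 2.65.

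The C1q chains form the recognition protein of the classical complement pathway, which needs the A, B and C chains in equal number. C1qb was measured at 8.60, 10.9 and 12.7 CPM in controls and at 36.0, 30.9 and 94.7 CPM in knockouts. Its groups did not overlap, with a log2 fold change of 2.33 (SE 0.50; edgeR adjusted p = 0.622, DESeq2 adjusted p = 0.00214). C1qc was measured at 7.18, 16.2 and 13.2 CPM in controls and at 23.5, 16.0 and 31.5 CPM in knockouts, where knockout 2 lay just below control 2. This was a log2 fold change of 0.95 (SE 0.48; edgeR adjusted p = 0.795). C1qa was near its limit of detection, with 18, 11 and 16 counts in controls and 19, 84 and 132 counts in knockouts. In CPM these were 0.622, 0.294 and 0.363 against 0.478, 2.32 and 3.77, with control 1 above knockout 1, and 3 counts were worth 0.0680 to 0.104 CPM. For C1qa the fit gave a log2 fold change of 2.35 (SE 1.24, edgeR adjusted p = 0.797).

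The chains did not keep a fixed proportion. The ratio of C1qb to C1qc counts was 1.20, 0.672 and 0.959 in controls and 1.53, 1.93 and 3.01 in knockouts, so it was higher in every knockout. The ratio of C1qb to C1qa counts ran from 13.4 in knockout 2 to 75.3 in knockout 1, with control 1 at 13.8 and the other libraries between 25.1 and 37.1. That second ratio did not separate the genotypes, and in every library the A chain had far fewer counts than the B chain.

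Among the receptors for dead cells and debris, Timd4, whose product TIM-4 binds phosphatidylserine on dying cells, was measured at 4.97, 3.50 and 8.53 CPM in controls and at 16.0, 11.4 and 30.3 CPM in knockouts. Every knockout was above every control, and the within-litter log2 ratios of 1.67, 1.69 and 1.82 were the most even of the 10 members. The fit gave it a log2 fold change of 1.76 (SE 0.61; edgeR adjusted p = 0.721, DESeq2 adjusted p = 0.195). Mertk, a receptor kinase that drives uptake of apoptotic cells, was measured at 15.6, 15.7 and 8.85 CPM in controls and at 25.0, 6.39 and 56.0 CPM in knockouts. Knockout 2 held the lowest Mertk level and knockout 3 the highest, and the fit gave a log2 fold change of 1.12 (SE 0.72; edgeR adjusted p = 0.845). Without knockout 2 it was 1.60, and without knockout 3 it was 0.24.

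Mrc1 encodes the mannose receptor CD206, which clears glycoproteins. It was measured at 180, 359 and 196 CPM in controls and at 309, 26.4 and 366 CPM in knockouts. Knockout 2 was 13.6-fold below the control of its litter, while the other knockouts were 1.72-fold and 1.87-fold above theirs. Knockout minus control came to -0.07 on the log2 scale (SE 0.76; edgeR adjusted p = 0.994), and without knockout 2 it was 0.47. Fcgr1 encodes the high-affinity IgG receptor CD64 and had few counts, with 12, 107 and 75 in controls and 71, 166 and 58 in knockouts. Its levels of 0.414, 2.86 and 1.70 CPM in controls and 1.79, 4.58 and 1.66 CPM in knockouts overlapped, and the fitted difference came to 0.69 on the log2 scale (SE 1.128, edgeR adjusted p = 0.953). Without knockout 2 that of Fcgr1 was 0.05.

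Cd68 encodes a heavily glycosylated protein of the lysosome membrane. It was measured at 7.25, 7.03 and 4.88 CPM in controls and at 14.8, 23.7 and 22.1 CPM in knockouts. Every knockout was above every control, and the means of 6.39 ± 1.31 and 20.2 ± 4.71 CPM (SD, n = 3) were further apart than the spread within either group. The log2 fold change of Cd68 was 1.66 (SE 0.48, edgeR adjusted p = 0.672, DESeq2 adjusted p = 0.0655).

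Vcam1 encodes the adhesion molecule through which island macrophages hold erythroblasts. It was measured at 22.4, 50.1 and 27.1 CPM in controls and at 51.0, 2.32 and 37.6 CPM in knockouts. As for Mrc1, knockout 2 was the library far below the rest, 21.6-fold below the control of its litter, and knockouts 1 and 3 were above the controls of theirs. Its fitted difference came to -0.13 on the log2 scale (SE 0.88; edgeR adjusted p = 0.990), and without knockout 2 it was 0.41. The estimates for Mrc1 and Vcam1 were also positive with scaling by library size alone, at 0.14 and 0.10.

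Results were recomputed without the libraries that stood apart. Without knockout 2, DESeq2 called 2 of the 10 members higher, C1qb (adjusted p = 0.000154) and Csf1r (adjusted p = 0.0122), against 1.89% of genes. Without knockout 3 it called the same 2, C1qb (adjusted p = 0.00523) and Csf1r (adjusted p = 0.0423), against 0.932% of genes. In edgeR no member passed in either case. The log2 fold change of C1qb was 2.61 without knockout 2 and 1.65 without knockout 3, that of Csf1r was 2.21 and 1.85, that of Cd68 was 1.53 and 1.60, and that of Timd4 was 2.03 and 1.29. That of C1qa was 2.31 without knockout 2 and 1.72 without knockout 3.

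Levels of different genes were compared per kilobase of annotated exon. In controls Mrc1 led with a mean of 38.4 CPM per kilobase, followed by C1qb at 9.86, C1qc at 6.33, Cd68 at 5.08, Csf1r at 4.07, Vcam1 at 3.74, Mertk at 3.09 and Timd4 at 2.61. Fcgr1 at 0.641 and C1qa at 0.410 CPM per kilobase came last. In knockouts the mean of C1qb was 49.5, that of Mrc1 36.7, that of Csf1r 17.9, that of Cd68 16.1 and that of C1qc 12.3 CPM per kilobase. Mrc1 was the leading member in each control and in knockout 1, and C1qb led in knockouts 2 and 3. Together the 3 C1q chains made up 18.8% to 28.1% of the members' summed level per length in controls and 33.0% to 44.9% in knockouts. The difference lay mainly in C1qb, at 10.1% to 17.4% in controls and 23.9% to 36.5% in knockouts. The share of C1qc overlapped, at 6.61% to 10.2% and 6.85% to 9.58%, and that of C1qa was at most 2.57% in any library.

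The composition differed most for Mrc1. Its share of all member counts was 70.3%, 71.1% and 66.3% in controls and 55.9%, 12.2% and 46.6% in knockouts, and the widest exact 95% binomial interval, which covers counting error only, was 69.2% to 71.3% in control 1. Every knockout was below every control. The ratio of Mrc1 to Csf1r counts was 20.2, 9.17 and 8.74 in controls and 4.09, 0.286 and 2.59 in knockouts, again lower in every knockout. The 10 members summed to 256, 504 and 296 CPM in controls and to 553, 216 and 785 CPM in knockouts, which overlapped. Without Mrc1 the members summed to 76.0, 146 and 99.8 CPM in controls and to 244, 190 and 419 CPM in knockouts. Those sums did not overlap, but Mrc1 was left out after its values were seen, so this is a description only.

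**Figure D2:**
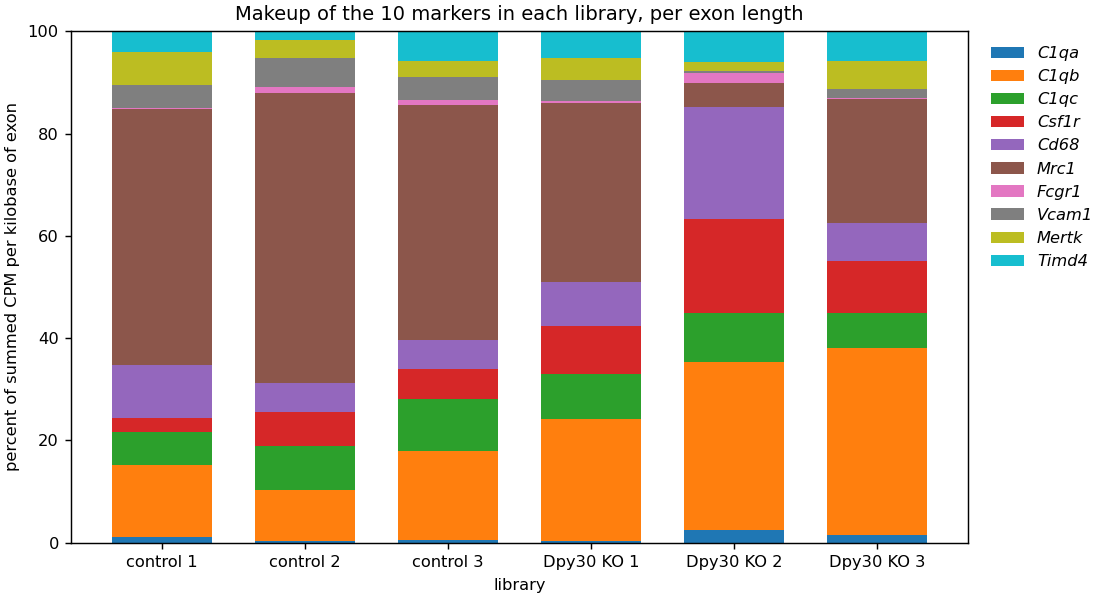
Share of each marker in the summed level of the 10 markers per kilobase of exon (stacked bars, percent) in each library. Mrc1 takes 45.9% to 56.7% of the bar in controls, 34.99% in knockout 1, 4.78% in knockout 2 and 24.1% in knockout 3, where C1qb takes 36.5%.

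The second comparison asked whether the 10 markers scaled together, as they would if the libraries differed in the amount of RNA from 1 kind of cell. If so, each litter would have 1 knockout-over-control factor, shared by all members. In litter 1, 9 of 10 members were higher in the knockout and the log2 ratios ran from -0.34 (C1qa) to 3.08 (Csf1r), with a median of 1.43 and an SD over members of 0.94. In litter 3, 9 of 10 were higher and the ratios ran from -0.04 (Fcgr1) to 3.20 (C1qa), with a median of 2.00 and an SD of 1.11. In litter 2, 6 of 10 were higher and the ratios ran from -4.40 (Vcam1) to 2.77 (C1qa), with a median of 0.95 and an SD of 2.43. The members' extremes were thus 10.7-fold, 144-fold and 9.41-fold apart in litters 1, 2 and 3. C1qa, which had few counts, was an extreme in each litter, with a counting SE of 0.475, 0.463 and 0.382 on the log2 scale. Fcgr1, the lowest in litter 3, also had few counts (counting SE 0.252).

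These gaps were larger than counting error for the well-counted members. In litter 2 the log2 ratio of Mrc1 was -3.76 with a counting SE of 0.05, that of Vcam1 was -4.40 with a counting SE of 0.16, and that of Csf1r was 1.24 with a counting SE of 0.05. With C1qa and Fcgr1 left out, the gaps in the other litters were narrower. In litter 1 the extremes were then Mertk at 0.68 (counting SE 0.08) and Csf1r at 3.08 (0.09). In litter 3 they were Vcam1 at 0.47 (counting SE 0.06) and C1qb at 2.895 (0.07). The spread of the members was below that of all genes in litters 1 and 3, where the SD over all genes was 1.63 and 2.28. It was above that of all genes in litter 2, where the SD over all genes was 2.01. All genes tested were used here, with no matching of their levels to those of the members, so the comparison is a description. With 1 library of each genotype in a litter, error between replicates within a litter was not measured.

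**Figure D3:**
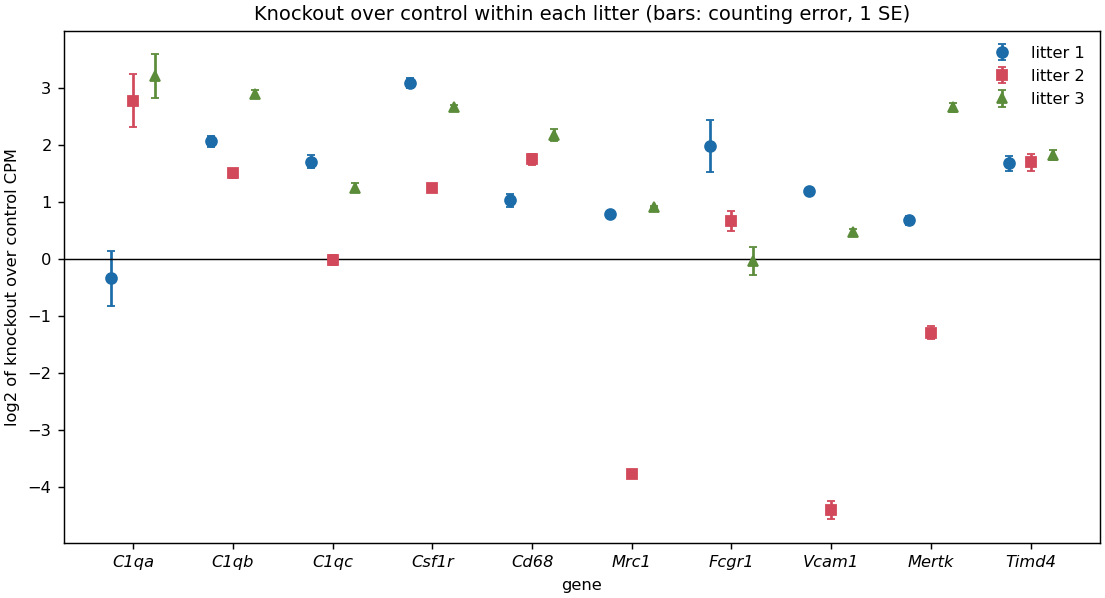
Knockout-over-control log2 ratio of each marker in each litter (1 point per litter, bars of 1 SE from counting error only). Points of litter 2 spread from -4.40 for Vcam1 to 2.77 for C1qa, while the 3 points of Timd4 lie between 1.67 and 1.82.

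Pairs of members showed which of them kept a common proportion over the 6 libraries. The ratio of Mrc1 to Vcam1 counts was 8.01, 7.16 and 7.22 in controls and 6.07, 11.4 and 9.75 in knockouts, a 1.88-fold range that was the smallest of the 45 pairs. C1qb and Timd4 came next with a 2.10-fold range, and these were the 2 pairs that stayed under 3-fold. The median range was 8.80-fold and the widest was 170-fold, for C1qa and Vcam1. Knockout 3 held the highest level of 7 members, whereas knockout 2 held the highest level of 2 (Cd68 and Fcgr1) and the lowest level of 3 (Mrc1, Vcam1 and Mertk).

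The low Mrc1 and Vcam1 levels of knockout 2 stood beside low levels of endothelial genes, a relation examined after the values were seen. Cdh5, the cadherin of endothelial junctions, was measured at 215, 283 and 188 CPM in controls and at 299, 13.5 and 305 CPM in knockouts. The hyaluronan receptor genes of sinusoidal endothelium followed it: Lyve1 was at 28.9 CPM in knockout 2 against 411 to 727 CPM elsewhere, and Stab2 at 24.6 CPM against 317 to 534 CPM. Kdr, Flt4 and Oit3 were lowest in knockout 2 as well, and Tek, also counted among the 13 HSC markers, was lowest in knockout 3. Whether HSCs or macrophages contributed to the other genes of the endothelial list was not tested. The 10 endothelial genes summed to 1683, 2417 and 1531 CPM in controls and to 2081, 209 and 2134 CPM in knockouts.

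Against that sum the Mrc1 level was 10.7%, 14.8% and 12.8% in controls and 14.9%, 12.6% and 17.2% in knockouts. A range as small as this 1.61-fold was found for 6 of 11353 genes, or 0.0529%, Mrc1 included. The Vcam1 level was 1.33%, 2.07% and 1.77% of the endothelial sum in controls and 2.45%, 1.11% and 1.76% in knockouts, a 2.21-fold range, and 0.361% of genes had one as small. That of Mertk had a 5.29-fold range (4.87% of genes as small). Those of the other 7 members had ranges of 17.95-fold to 90.8-fold (49.9% to 89.9% of genes as small). The endothelial list was set beside these members after the values were seen, so the shares are a description. The proportion to endothelial markers was thus steadiest for Mrc1 and Vcam1 among the 10 members. The part of endothelial RNA in the Mrc1 and Vcam1 levels was not tested.

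**Figure D4:**
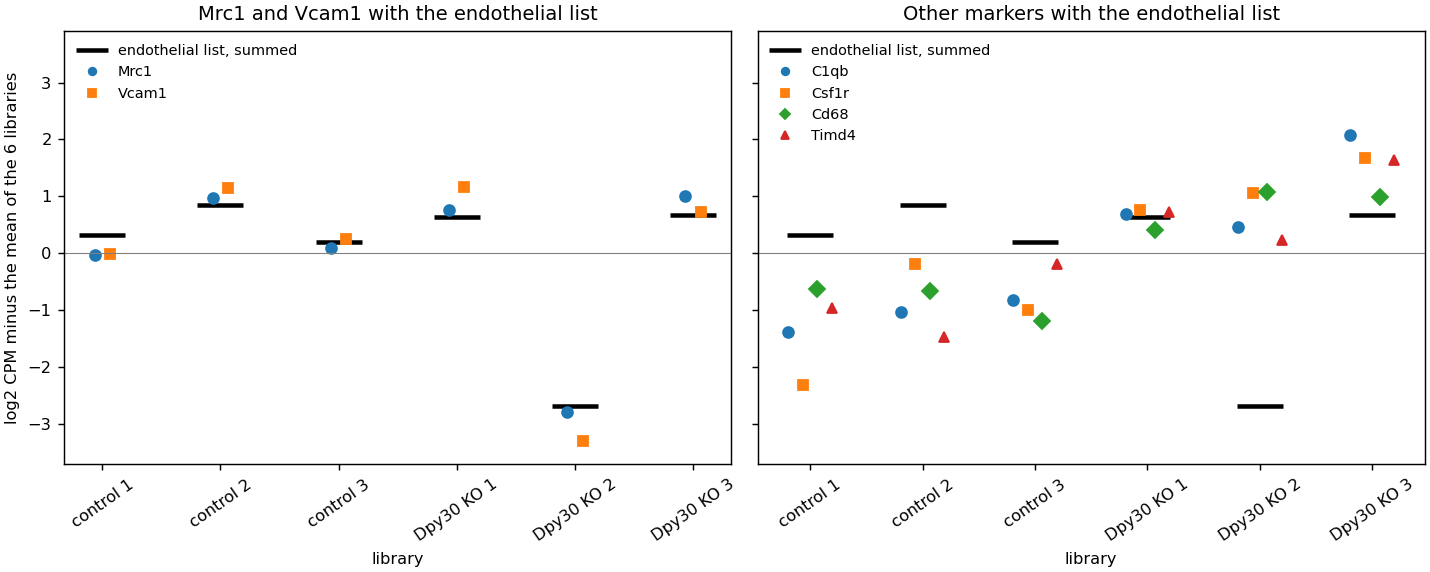
Log2 CPM minus the mean over the 6 libraries for the summed endothelial list (black bars) with Mrc1 and Vcam1 (left) and with C1qb, Csf1r, Cd68 and Timd4 (right). In knockout 2, Mrc1 and Vcam1 lie with the endothelial bar, whereas C1qb, Csf1r, Cd68 and Timd4 lie above their own mean.

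A further 28 macrophage genes, read in the same fit, showed how the 10 members compared with others of their kind. Of the 26 tested, 24 had a positive log2 fold change, with a median of 1.65. Every knockout was above every control for 6 (Msr1, Siglec1, Apoe, Lyz2, Ms4a7 and Pf4), against 6.39% of all genes tested. EdgeR called none and had 8 higher at an unadjusted p under 0.05, against 4.26% of all genes. DESeq2 called 3 higher (Hmox1, Msr1 and Lyz2) and none lower, against 0.777% of genes called higher. DESeq2 called 6 higher both without knockout 2 and with the litter block, against 1.89% and 1.2% of genes. Without knockout 3 it called 1, Siglec1, against 0.932% of genes. In that fit Hmox1 (adjusted p = 0.173), Msr1 (adjusted p = 0.102) and Lyz2 (adjusted p = 0.0661) no longer passed. Msr1, a scavenger receptor, was measured at 10.7, 9.07 and 17.9 CPM in controls and at 34.8, 29.5 and 67.8 CPM in knockouts (log2 fold change 1.81, SE 0.47, edgeR adjusted p = 0.624). The lysozyme gene Lyz2 was measured at 49.1, 97.8 and 71.6 CPM in controls and at 233, 114 and 711 CPM in knockouts (log2 fold change 2.28, SE 0.63, edgeR adjusted p = 0.644), and its log2 fold change without knockout 3 was 1.26. The 28 genes summed to 516, 599 and 546 CPM in controls and to 1168, 470 and 2273 CPM in knockouts, so knockout 2 was below the controls. That place of the knockout 2 sum depended on Stab1. Stab1 was measured at 116, 167 and 92.2 CPM in controls and at 180, 10.1 and 115 CPM in knockouts. It was not the only gene of the list below every control in knockout 2. Maf was at 16.7 CPM there against 52.3 to 83.4 CPM in controls, and Slc40a1 at 19.6 CPM against 38.9 to 57.2 CPM. Knockout 3 was the highest library for 21 of the 28, and among the 3 knockouts, knockout 2 was the lowest for 21 of the 28.

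Defining markers of resident liver macrophages ranged from well counted to absent. Emr1, which encodes the F4/80 antigen, had 35, 110 and 362 counts in controls and 997, 269 and 933 in knockouts, and the scavenger receptor gene Marco had 1801, 243 and 739 counts in controls and 3291, 1069 and 9406 in knockouts. Cd5l had 160 to 1081 counts and the iron exporter gene Slc40a1 had 710 to 4006 counts over the 6 libraries. At the low end, Vsig4 had 0 counts in the 3 controls and 46, 0 and 48 counts in knockouts, and Cd163 had 0, 0 and 8 counts in controls and 42, 12 and 0 in knockouts. At these depths a count of 0 allows a level of up to 0.0680 to 0.104 CPM. Against the summed level of the 28 genes, Mertk kept a 2.22-fold range over the 6 libraries, C1qc 2.46-fold, C1qb 3.95-fold and Timd4 4.16-fold. A range as small was found for 1.57%, 2.51%, 15.0% and 17.3% of 11341 genes, in that order. Cd68 had a 5.64-fold range and Mrc1, Csf1r, C1qa, Fcgr1 and Vcam1 had ranges of 10.7-fold to 17.0-fold. Among the 10 members, Mertk and C1qc thus followed this sum most closely, although neither separated the genotypes. The sum is weighted to highly expressed genes: Lyz2 alone gave 711 of its 2273 CPM in knockout 3.

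Markers of other cells were summed in the same way, and the monocyte and the mast cell sums were those that separated the genotypes, with no gene of either list called by DESeq2 (with the litter block it called 1, Cpa3). The summed level of 10 monocyte genes ran from 84.8 to 113 CPM in controls and from 135 to 174 CPM in knockouts, higher in every knockout. That of 10 granulocyte genes ran from 60.4 to 124 CPM in controls, and knockouts 1 to 3 had 69.6, 148 and 407 CPM. That of 10 mast cell and basophil genes was 32.1 to 41.5 CPM against 48.7 to 84.6 CPM, with 4 of the 10 at no more than 3 counts in any library. The erythroid sum ran from 1152 to 1856 CPM in controls and from 614 to 1666 CPM in knockouts. Of the 9 erythroid genes tested, DESeq2 called 1 lower, Tfrc, which was lower in every knockout, against 34 of 13390 genes called lower. It called 2 lower with the litter block (123 of 12852 genes) and 4 lower without knockout 3 (127 of 13622 genes). The lymphoid sum was at most 7.03 CPM in any library. Dendritic cell genes summed to 39.3 to 47.7 CPM in controls and 38.4 to 73.2 CPM in knockouts, and hepatocyte genes to 5.59 to 27.2 CPM and 6.24 to 20.7 CPM. Megakaryocyte genes summed to 232 to 341 CPM in controls and 234 to 527 CPM in knockouts, and stromal genes to 42.7 to 49.1 CPM and 17.3 to 68.1 CPM, with knockout 2 lowest for stroma. The part of any of these cells in the member levels was not tested.

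Partners of C1q were read from a list of 12 complement genes. The 7 tested all had a positive log2 fold change, with a median of 1.30. EdgeR called none, and DESeq2 called C3, C3ar1 and C5ar1 higher, the same 3 that did not overlap between groups. Over all genes, DESeq2 called 0.777% higher, and 6.39% were higher in every knockout. C3, the central component cleaved downstream of C1q, was measured at 1.35, 3.83 and 6.06 CPM in controls and at 40.7, 23.2 and 194 CPM in knockouts. This was a log2 fold change of 4.52 (SE 0.94; edgeR adjusted p = 0.612). C3ar1, the receptor for the C3a fragment, was measured at 2.52, 4.44 and 2.99 CPM in controls and at 24.7, 19.3 and 12.1 CPM in knockouts (log2 fold change 2.49, SE 0.58, edgeR adjusted p = 0.622). Without knockout 3 DESeq2 still called C3 and C3ar1 but not C5ar1 (adjusted p = 0.325), and the edgeR log2 fold change of C3 was 3.10.

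Around Csf1r, 11 of 12 genes of the CSF1 pathway were tested and 9 had a positive and 2 a negative log2 fold change, with a median of 0.58 and no call by edgeR or DESeq2. The smallest p-values belonged to Stat3, a transcription factor, with a log2 fold change of 1.07 (edgeR adjusted p = 0.733), and Cebpa, a myeloid transcription factor, with one of 3.56 (edgeR adjusted p = 0.775). Without knockout 3 these were 0.57 and 2.72. Cebpa had 17, 9 and 47 counts in controls and 1, 300 and 499 counts in knockouts, so knockout 1 was below every control. The ligand gene Csf1 was measured at 3.94, 3.53 and 3.27 CPM in controls and at 12.9, 2.45 and 0.857 CPM in knockouts. Spi1, which encodes PU.1, was measured at 35.3, 16.0 and 26.2 CPM in controls and at 20.8, 28.9 and 41.1 CPM in knockouts. Both Csf1 and Spi1 overlapped between the groups, unlike Csf1r itself. Of the 11 tested, 1 gene, Grb2, was higher in every knockout, as were 6.39% of all genes. The 12 genes summed to 352, 402 and 406 CPM in controls and to 479, 479 and 526 CPM in knockouts, so the sum was higher in every knockout.

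Of 7 genes that act with Fcgr1 in Fc receptor signalling, all had a positive log2 fold change, with a median of 1.17. DESeq2 called Fcgr3 and Fcer1g higher, against 0.777% of all genes. Fcer1g, the shared signalling chain of these receptors, was measured at 18.9, 10.5 and 5.63 CPM in controls and at 31.2, 68.3 and 184 CPM in knockouts (log2 fold change 3.02, SE 0.72, edgeR adjusted p = 0.622). The kinase gene Syk was measured at 16.6, 22.3 and 26.02 CPM in controls and at 40.7, 50.2 and 55.4 CPM in knockouts (log2 fold change 1.17, SE 0.32, edgeR adjusted p = 0.642). Both Fcer1g and Syk were higher in every knockout, as were 6.39% of all genes tested, whereas Fcgr1 overlapped. The DESeq2 call of Fcgr3 was lost without knockout 2 (adjusted p = 0.142) and without knockout 3 (adjusted p = 0.124). Fcer1g kept its call in both cases, with a log2 fold change of 2.10 without knockout 3.

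For the uptake of dying cells, 17 of 18 genes were tested, 13 with a positive and 4 with a negative log2 fold change and a median of 0.30. EdgeR called none, and DESeq2 called Itgb3 and Abca1 higher, against 0.777% of all genes. Itgb3, an integrin chain also carried by megakaryocytes, was at 65.5 to 73.1 CPM in controls and 125 to 254 CPM in knockouts (log2 fold change 1.39, DESeq2 adjusted p = 0.00582). The cholesterol exporter gene Abca1 was at 27.6 to 33.9 CPM in controls and 66.0 to 213 CPM in knockouts (log2 fold change 1.94, DESeq2 adjusted p = 0.00582). Both kept their DESeq2 call without knockout 2 or knockout 3, and the log2 fold change of Abca1 without knockout 3 was 1.26. Of 12 genes of the erythroblastic island, 11 were tested, 6 with a positive and 5 with a negative log2 fold change and a median of 0.03. There DESeq2 called Hmox1, which degrades heme, at a log2 fold change of 1.88 (adjusted p = 0.0370), and no gene of the list was called by edgeR. Without knockout 3 that call was lost (log2 fold change 1.31, DESeq2 adjusted p = 0.173). Klf1, the erythroid transcription factor, had a log2 fold change of -0.83 (edgeR adjusted p = 0.797) with overlapping groups.

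Genes outside the macrophage lists were ranked by how close their centred log2 levels in the 6 libraries came to the median profile of the members. That profile was -0.79, -0.12 and -0.56 in controls and 0.65, 0.35 and 1.32 in knockouts. Among 9010 genes compared, Trim24 was nearest with a root mean square distance of 0.158 on the log2 scale, followed by Fyb at 0.183, Dot1l at 0.225, Dcaf4 at 0.227, Map2k5 at 0.232, Fam13b at 0.233, Ctc1 at 0.242 and Zc3h12c at 0.250. The median distance of all genes compared was 0.931. Of the members, C1qc was nearest to their own median profile at 0.293, and Mrc1 at 1.43 and Vcam1 at 1.66 were the farthest. The order was computed over 6 libraries that shared the same depth differences, and it is given as a description.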

How the data were processed

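The files hold deposited read counts per gene, 1 file per library, which the authors made from poly(A)-selected RNA. The submitters' processing notes name CASAVA 1.8.4, TopHat2, Picard 1.126, HTSeq 0.6.0, DESeq 3.0 and bedtools 2.17.0 and the build mm10; the annotation and the use of strand are not given in the sources used here. Reads outside genes were left out. Counts were fitted with edgeR 4.0.16 (R 4.3.3; filterByExpr, trimmed mean of M values, quasi-likelihood test, Benjamini-Hochberg adjustment over 13646 genes, threshold 0.05), after a check on simulated data. DESeq2 1.42.0, limma-voom (limma 3.58.1), other scalings and filters, a litter block and the omission of each library were alternatives. DESeq2 without knockout 2 or 3 was added after seeing the data.

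The members and lists were chosen with earlier results of these data known. All members, Dpy30, the 2 genes of smallest edgeR p in each pathway list and the 8 genes nearest the members' profile (filtered at a group mean of 5 CPM) were named by rule; other genes named were chosen after their values were seen. Positions and exon lengths came from GENCODE (GRCm38) by symbol. Ahsp was not matched, and Adgre1 and C1s1 were matched through RefSeq synonyms. The labels pair the libraries by litter; deviations from the group means correlated at -0.0224, -0.0752 and 0.0034 within the litters. P-values measure the spread between these libraries, and the smallest p of an exact permutation test of 3 against 3 is 0.1.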

Additional observations from a re-analysis of the deposited data

How the results depend on the processing

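The number of genes called was 0 in edgeR's main fit (888 at an unadjusted p under 0.05) and 0 with the replicate block (619 at an unadjusted p under 0.05) and without each replicate in turn (lowest 0, highest 0). It was 138 in DESeq2, 277 in DESeq2 with the replicate block, 419 in DESeq2 without knockout 2, 254 in DESeq2 without knockout 3, 1 with no filter on low counts and 1 with at least 10 counts in every sample; the cause was not tested. Of the members, DESeq2 called 2 in each of its 4 fits, and every other alternative called 0, as did each edgeR fit without 1 replicate (0 to 0). The median member log2 fold change kept its direction in all 18 alternatives (1.12 to 1.60; 1.32 with the block), and so did the log2 fold changes of 8 members. Mrc1 reversed to 0.14 with scaling by library size only, 0.32 without control 2, 0.47 without knockout 2 and 0.49 in DESeq2 without knockout 2. Vcam1 reversed under the same settings, to 0.10, 0.29, 0.41 and 0.43. The Mrc1 range without each replicate in turn was -0.53 to 0.47 and the Vcam1 range -0.74 to 0.41. Scaling by library size only moved the median log2 fold change of all genes from 0.02 to 0.23. The block changed no call of a member. With 11 to 166 counts in every library, C1qa and Fcgr1 are limited by depth.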
